A study of Mus musculus with 6 samples.

Results

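The Kruppel-like factors followed here were Klf2, Klf3, Klf4, Klf5, Klf6, Klf9, Klf10 and Klf13. They were taken as all probe sets of the array table whose platform annotation names 1 gene, that gene one of these 8. This gave 8 of 18193 named genes and 29 probe sets of 45037, with 7 each for Klf3 and Klf9, 5 for Klf6, 3 each for Klf5 and Klf13, 2 for Klf4, and 1 each for Klf2 and Klf10. The study measured total RNA of mouse embryonic stem cells (mESCs), the cultured pluripotent cells of the early embryo, on 6 Affymetrix mouse genome arrays. Of these, 3 came from wild type cells and 3 from Setd2 knockout cells. Setd2 encodes the methyltransferase that trimethylates lysine 36 of histone H3 along transcribed genes. Cells of both genotypes had the strain label 129SV/C57BL/6, received no treatment and were grown on feeder cells, which were then depleted by settling on gelatin and by a passage without feeders. The labels do not say how the gene was deleted or whether a genotype was 1 clone, so knockout and wild type cells may differ in ways other than Setd2. They call the arrays biological repeats without saying that these were separate cultures, so p-values measure the spread between these arrays.

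Kruppel-like factors are transcription factors that bind CACCC boxes and GC-rich elements through C2H2 zinc fingers at the carboxy terminus, a feature they share with the Sp factors. In mESCs, Klf2, Klf4 and Klf5 belong to the circuit that maintains self-renewal: leukaemia inhibitory factor (LIF) acts through Stat3 on Klf4, and each of these factors can in part cover for loss of another. Klf3 is a repressor that recruits the corepressor CtBP, while Klf9, Klf10 and Klf13 bind the corepressor Sin3a. Klf6 and Klf10 are known as early response genes in many cell types, Klf10 downstream of Tgf-beta.

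The promoters of Klf2 and Klf3 are shown first because these are the genes with the largest differences between the genotypes, and that of Klf4 because its genotypes overlapped. RefSeq windows of assembly GRCm38.p6, from 250 bases before to 50 after the annotated start, were at hand for 6 of the 8 genes, all but Klf5 and Klf10. The Klf2 window is chr8:72318812-72319111 on the plus strand, that of Klf3 chr5:64803271-64803570 on the plus strand and that of Klf4 chr4:55532426-55532725 on the minus strand. Capitals mark the CACCC box (letters CACCC, or GGGTG on the other strand) and the GC box (CCGCCC, or GGGCGG on the other strand).
Klf2: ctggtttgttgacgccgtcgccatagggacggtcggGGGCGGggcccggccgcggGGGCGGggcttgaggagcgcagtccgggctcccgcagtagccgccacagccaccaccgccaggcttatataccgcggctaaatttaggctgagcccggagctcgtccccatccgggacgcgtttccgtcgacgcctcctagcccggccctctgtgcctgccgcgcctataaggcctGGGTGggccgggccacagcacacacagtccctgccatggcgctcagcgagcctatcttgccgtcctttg
Klf3: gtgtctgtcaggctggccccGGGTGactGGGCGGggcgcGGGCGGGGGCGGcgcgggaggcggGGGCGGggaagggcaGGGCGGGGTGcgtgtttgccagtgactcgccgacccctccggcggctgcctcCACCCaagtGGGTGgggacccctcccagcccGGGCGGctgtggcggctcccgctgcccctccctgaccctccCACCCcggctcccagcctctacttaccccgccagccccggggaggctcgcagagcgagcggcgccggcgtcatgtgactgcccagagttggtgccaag
Klf4: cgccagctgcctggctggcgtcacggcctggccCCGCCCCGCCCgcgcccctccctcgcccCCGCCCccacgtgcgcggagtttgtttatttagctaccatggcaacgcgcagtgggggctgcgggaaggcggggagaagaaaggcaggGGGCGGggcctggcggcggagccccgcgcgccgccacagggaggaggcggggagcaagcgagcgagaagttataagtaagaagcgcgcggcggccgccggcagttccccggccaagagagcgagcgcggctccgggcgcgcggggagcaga

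The Klf3 window held 5 CACCC boxes and 6 GC boxes, which shared 1 base in all. Klf2 had 1 CACCC box and 2 GC boxes, and Klf4 had 0 and 4. Klf9 had 1 and 0, Klf13 had 1 and 3, and Klf6 had 0 and 1. Of all 32851 windows of this length, 57.5% held at least 1 CACCC box and 35.7% at least 1 GC box. These matches describe the letters of a window and nothing was measured on binding there.

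Values are log2 MAS5 signals, 1 number per probe set and array, and the signal of one probe set cannot be set against that of another. Array medians lay between 6.09 and 6.22, and no 2 arrays held identical values. The Setd2 probe set read between 10.30 and 10.31 on the wild type arrays and between 9.37 and 9.60 on the knockout arrays, 1.76-fold lower (limma adjusted p = 0.0272). Whether it reads the deleted part of the gene is not given in the labels. Embryonic stem cell markers averaged between 13.12 and 13.16 on the wild type and between 12.91 and 12.97 on the knockout arrays over 10 genes, of which 1 fell, Zfp42. Zfp42 differed by -1.99, while the other markers differed by -0.11 to 0.08. Feeder fibroblast markers (16 tested of 18) averaged 8.09 on wild type array 1, 7.73 on knockout array 1 and 8.89 to 9.41 elsewhere, with 0 past the threshold in limma and 1 higher with the replicate block. Arrays numbered 1 in the labels deviated together, while numbers 2 and 3 were not clearly told apart. Each comparison is also given with the number as a block where this changes the call.

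Of the 29 Klf probe sets, 26 passed the filter on dim signals, a mean log2 value of at least 5.27. At an adjusted p of 0.05 in limma without a block, 0 of these 26 differed between knockout and wild type cells, against 0.648% of all 27022 tested probe sets. An unadjusted p under 0.05 was reached by 5 of the 26, against 11.7% of all. When the replicate number entered as a block, those same 5 probe sets passed on adjusted p, against a background of 7.88%. Klf2 and 2 probe sets of Klf3 were then lower, where 4.39% of all probe sets were lower, and 1 probe set each of Klf3 and Klf9 was higher, where 3.49% were higher. The 3 knockout values all lay below the 3 wild type values at 4 of the 26 probe sets and above them at 2, so that the groups did not overlap at 6. Over all tested probe sets the groups did not overlap at 18.1%, with 8.99% lower and 9.16% higher. The median difference was 0.01 over the Klf probe sets and 0.01 over all.

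**Figure D1:**
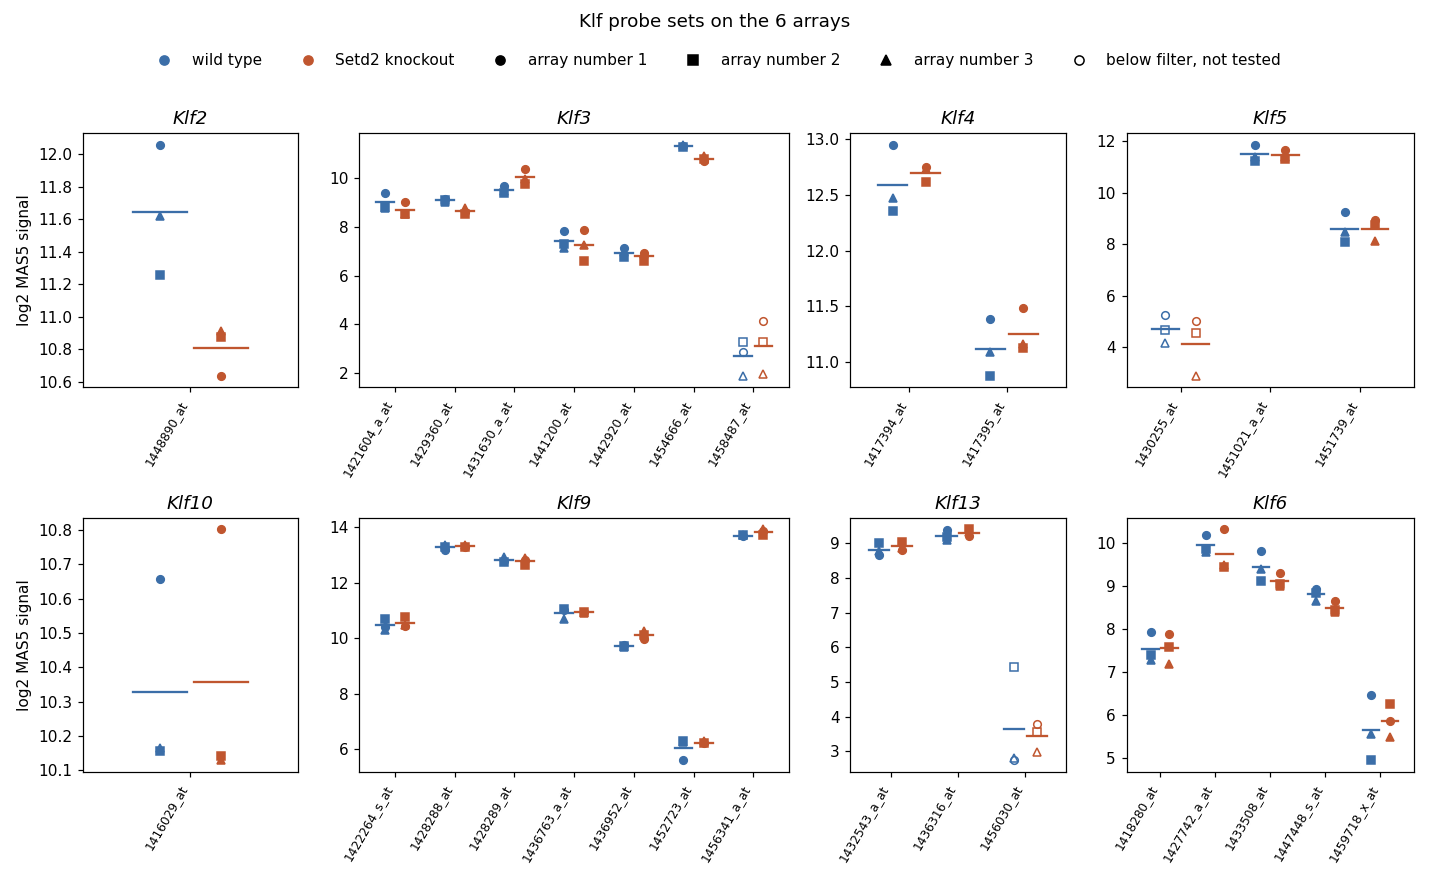
Log2 MAS5 signal of every Klf probe set on each array, a panel per gene with its own vertical axis, wild type in blue and Setd2 knockout in orange. Marker shapes give the array number, horizontal lines the mean of 3 arrays and open markers the 3 probe sets below the filter. Klf2 and the Klf3 probe set 1454666_at lie lower on every knockout array, and 1431630_a_at of Klf3 lies higher.

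Klf2 had the lowest knockout minus wild type difference of the 26 probe sets. Its single probe set (1448890_at) read 12.06, 11.26 and 11.62 on wild type arrays 1, 2 and 3, and 10.64, 10.87 and 10.91 on knockout arrays 1, 2 and 3. Every knockout array lay below every wild type array, and the wild type arrays spread more widely (SD 0.40) than the knockout arrays (SD 0.15). The mean went from 11.65 to 10.81, a difference of -0.84 ± 0.19 (SE; 95% interval -1.28 to -0.40), or a 1.79-fold lower signal. In limma this missed the threshold (adjusted p = 0.118) and passed it with the replicate block (adjusted p = 0.00800). Between arrays of the same number Klf2 was lower by -1.42, -0.39 and -0.71 for numbers 1, 2 and 3, so the size rested on number 1. Without the 2 arrays numbered 1 the difference was -0.55 (limma adjusted p = 0.0177 without a block). In RNA from a cell population, fewer cells with Klf2 and less Klf2 RNA per cell cannot be told apart.

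Wild type array 1, where Klf2 was highest, was also the array with the highest mean of immediate early genes, the fast responders to serum and handling. That mean over 16 genes was 10.42 there and between 9.16 and 9.81 on the other 5 arrays, and its part in the Klf2 difference was not tested. The mean of the primitive endoderm markers moved with genotype as well. Over 14 tested genes it ran from 8.57 to 8.77 on the wild type and from 7.56 to 7.81 on the knockout arrays. Differences were below 0 at 12 of the 14, while Gata4, Lamb1 and Lamc1 stayed near 0, at 0.03, 0.04 and -0.04. The part of the primitive endoderm markers in the Klf2 difference was not tested either.

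Klf2 lies on chromosome 8, and this chromosome as a whole read lower in knockout cells. Its 1242 tested probe sets had a median difference of -0.34, with 86.6% below 0, while the medians of the other chromosomes ran from -0.02 to 0.06. The Klf2 difference was 0.50 below that median (-0.50), and 77 of the 1242 probe sets (6.20%) were lower still. With the chromosome median of each array subtracted from its probe sets, Klf2 differed by -0.45, short of the threshold without a block (limma adjusted p = 0.476) and with it (adjusted p = 0.102). A lower level of Klf2 and a lower level of its whole chromosome can thus not be told apart here. None of the other 7 genes lies on chromosome 8.

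The genes that flank Klf2 in chromosome order gave the same picture at short range. Of the 5 nearest tested genes on each side, 8 of 10 had differences below 0, with a median of -0.29 and a range from -0.98 to 0.17. The lowest was the next gene, Ap1m1, a clathrin adaptor subunit gene, at -0.98 (limma adjusted p = 0.0218). It was the 1 neighbour past the threshold, and 5 of the 10 were lower with the replicate block, where 33.3% of the chromosome's tested probe sets were. On the other side, the endocytic adaptor gene Eps15l1 differed by -0.53 (adjusted p = 0.454, and 0.0120 with the block). Zfp961 and Calr3 read 0.14 and 0.17 above wild type, short of the threshold in both fits.

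**Figure D2:**
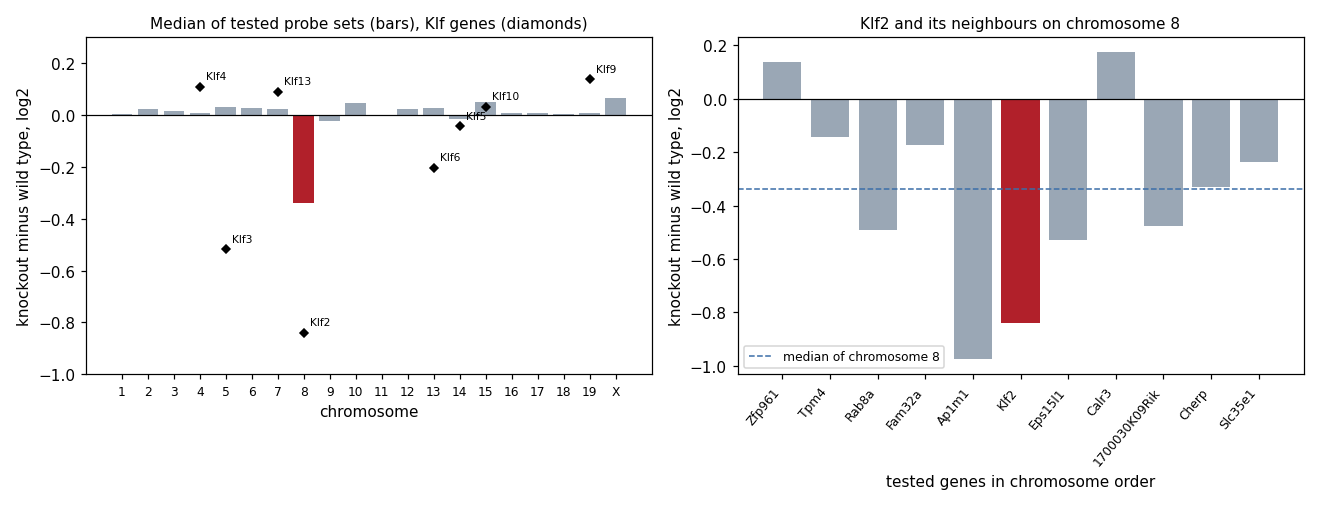
Left, median knockout minus wild type difference (log2) of the tested probe sets of each chromosome as bars, with each Klf gene at its brightest tested probe set as a diamond. Right, the same difference for Klf2 and the 5 nearest tested genes on each side in chromosome order, with the chromosome 8 median as a dashed line. Klf2 lies at -0.84, below the median of -0.34, and Ap1m1 lies at -0.98.

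Klf4 and Klf5, which share the self-renewal role of Klf2, showed no difference past the threshold over all 6 arrays, with or without the block. Klf4 (1417394_at) read 12.95, 12.35 and 12.47 on the wild type and 12.75, 12.61 and 12.73 on the knockout arrays, numbers 1 to 3. The groups overlapped, with wild type array 1 the highest of all, and the difference was 0.11 (95% interval -0.23 to 0.44; limma adjusted p = 0.855). Between arrays of the same number the difference was -0.20, 0.26 and 0.26 for numbers 1, 2 and 3, so number 1 made it smaller. Without wild type array 1 the difference was 0.28 (limma adjusted p = 0.267). Without both arrays numbered 1 it was 0.26 (adjusted p = 0.0657), which passed as higher with the block (adjusted p = 0.0146). The second Klf4 probe set (1417395_at) differed by 0.14 (-0.22 to 0.50). Klf5 (1451021_a_at) read 11.86, 11.25 and 11.39 on the wild type and 11.65, 11.32 and 11.40 on the knockout arrays. Its groups overlapped too, and the difference was -0.05 (-0.43 to 0.34; limma adjusted p = 0.955). The other tested Klf5 probe set differed by 0.00 with a wide interval (-0.73 to 0.74), and a dim one (1430255_at, between 2.89 and 5.26) was not tested. The intervals leave room for a Klf4 difference from -0.23 to 0.50 and a Klf5 difference from -0.73 to 0.74 on the log2 scale.

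The change of Klf2 was set against that of each paralog through the log2 ratio of the 2 probe sets on each array, with the brightest tested probe set of the paralog. The difference between genotypes was lower for Klf2 than for all 7 paralogs, by -0.32 for Klf3, -0.64 for Klf6, -0.79 for Klf5, -0.87 for Klf10, -0.93 for Klf13, -0.95 for Klf4 and -0.98 for Klf9. With the mean over a paralog's tested probe sets in place of the brightest, the distances ran from -0.96 to -0.66, the last for Klf3, whose probe sets disagree in direction. Against Klf4 the ratio was -0.89, -1.09 and -0.85 on the wild type arrays and -2.11, -1.74 and -1.82 on the knockout arrays. The knockout arrays lay lower without overlap for 5 paralogs, all but Klf3 and Klf6, as they did for 68.7% of all probe sets set against Klf2. For these 5 the exact two-sided permutation test gave p = 0.10, the smallest that 3 arrays against 3 allow, and for Klf3 and Klf6 the exact p was 0.30.

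In limma fitted to the ratios with all probe sets, Klf4, Klf9 and Klf13 passed the threshold (adjusted p = 0.0421, 0.0381 and 0.0448), and with the replicate block Klf10 did too (0.0489). All ratios share the Klf2 values, so this fit gave each the same SE of 0.39, treated it as known without error and makes p-values too small. Against Klf4 the 95% interval was -1.71 to -0.18, and against Klf3 -1.08 to 0.44. The background was high, with 43.5% of all probe sets called against Klf2 and 47.8% with the block, so 3 of 7 paralogs is a share near the background. Without wild type array 2 the count was 5, and without any other single array 0. After subtraction of chromosome medians the distances ran from -0.60 to 0.12, with Klf2 above Klf3, and 0 of 7 passed.

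**Figure D3:**
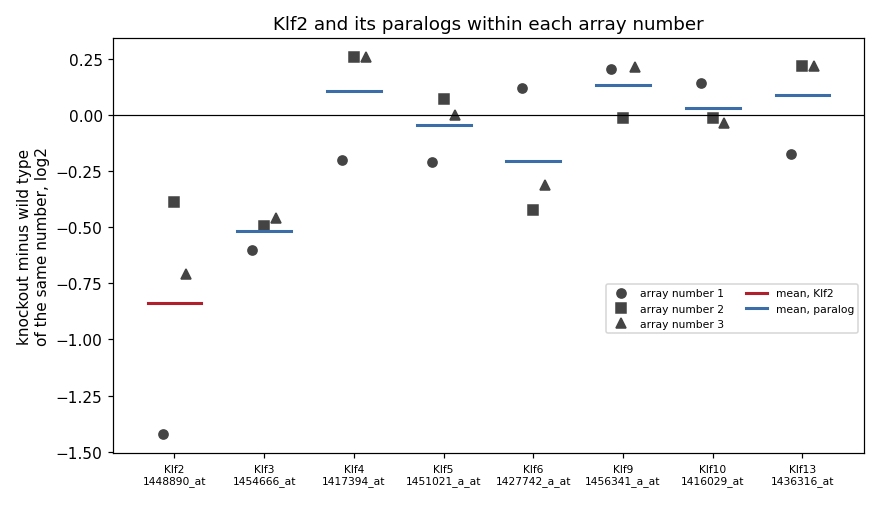
Knockout minus wild type difference (log2) between arrays of the same number for Klf2 and for the brightest tested probe set of each paralog. Points are the 3 array numbers and lines their mean. Klf2 and Klf3 lie below 0 at all 3 numbers, and Klf2 spreads from -1.42 to -0.39.

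Klf3, the CtBP-binding repressor, had probe sets that moved in opposite directions. The brightest (1454666_at) read 11.32, 11.26 and 11.36 on the wild type and 10.72, 10.77 and 10.90 on the knockout arrays. The groups stood apart with little spread (SD 0.05 and 0.10). The difference was -0.52 ± 0.10 (SE; 95% interval -0.75 to -0.29), a 1.43-fold lower signal, with limma adjusted p = 0.0721, or 0.00263 when blocked by number. A second probe set (1429360_at) read 9.16, 9.10 and 9.04 against 8.62, 8.53 and 8.76, again without overlap. It differed by -0.46 ± 0.14 (limma adjusted p = 0.229, and 0.0402 with the block). The blocked call was kept without any pair of same-numbered arrays for 1454666_at and lost for 1429360_at without pair 2 (adjusted p = 0.221) or pair 3 (0.104).

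The Klf3 probe set 1431630_a_at went the other way. It read 9.66, 9.38 and 9.46 on the wild type and 10.39, 9.76 and 9.98 on the knockout arrays, so the lowest knockout value lay above the highest wild type value. The difference was 0.54 ± 0.18 (SE), a 1.45-fold higher signal, with limma adjusted p = 0.284, or 0.0100 when blocked by number. Without pair 3 the blocked adjusted p was 0.0729. The log2 ratio of this probe set to 1454666_at was -1.65, -1.88 and -1.90 on the wild type and -0.33, -1.01 and -0.93 on the knockout arrays, a shift of 1.06 in a pair chosen after its values were seen. The other 3 tested Klf3 probe sets differed by -0.32, -0.17 and -0.14 and overlapped between genotypes, and a dim one (1458487_at, between 1.90 and 4.13) was not tested. The annotation here does not place the probe sets along the Klf3 transcript, so which part of the gene each reads was not analysed here. A statement on the total level of Klf3 RNA therefore depends on the probe set.

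Among the Sin3a-binding repressors, 1 of 10 tested probe sets stood apart between the genotypes, where 18.1% of all tested probe sets did. Klf9 had 7 tested probe sets, of which 6 had differences between -0.02 and 0.19 and overlapped between genotypes. The seventh (1436952_at) read 9.75, 9.74 and 9.68 on the wild type and 9.96, 10.13 and 10.27 on the knockout arrays. The groups did not overlap, and the difference was 0.40 ± 0.13 (SE), a 1.32-fold higher signal (limma adjusted p = 0.264, or 0.0401 when blocked by number). The blocked call was lost without pair 2 (adjusted p = 0.166) or pair 3 (0.312). The brightest Klf9 probe set (1456341_a_at) read 13.67, 13.72 and 13.70 against 13.88, 13.70 and 13.92. These values overlapped, with a difference of 0.14 (-0.03 to 0.30; limma adjusted p = 0.531).

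Klf10, a target of Tgf-beta in many cell types, separated by array number, while its genotypes overlapped. Its probe set (1416029_at) read 10.66, 10.16 and 10.16 on the wild type and 10.80, 10.14 and 10.13 on the knockout arrays, so the 2 arrays numbered 1 were high in both. The difference between genotypes was 0.03 (-0.47 to 0.53; limma adjusted p = 0.978), and the replicate block narrowed its interval to -0.16 to 0.22. Klf13 differed by 0.09 at both tested probe sets, with intervals of -0.26 to 0.43 and -0.23 to 0.41. Its dim probe set (1456030_at, between 2.74 and 5.42) was not tested.

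Klf6 had 5 tested probe sets, with differences from -0.32 to 0.21 and limma adjusted p from 0.478 to 0.995. The lowest adjusted p was that of 1447448_s_at, which read 8.93, 8.85 and 8.66 on the wild type and 8.66, 8.44 and 8.39 on the knockout arrays. These groups lay just apart, at -0.32 (-0.67 to 0.03), and the threshold was missed with the block too (adjusted p = 0.143). The suffixes _s_at and _x_at mark probe sets that may also bind other transcripts, so this one and 1459718_x_at are less certain as readings of Klf6. The brightest Klf6 probe set (1427742_a_at) differed by -0.20, and by -0.37 without both arrays numbered 1 (limma adjusted p = 0.0662), where it passed as lower with the block (adjusted p = 0.0327).

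**Figure D4:**
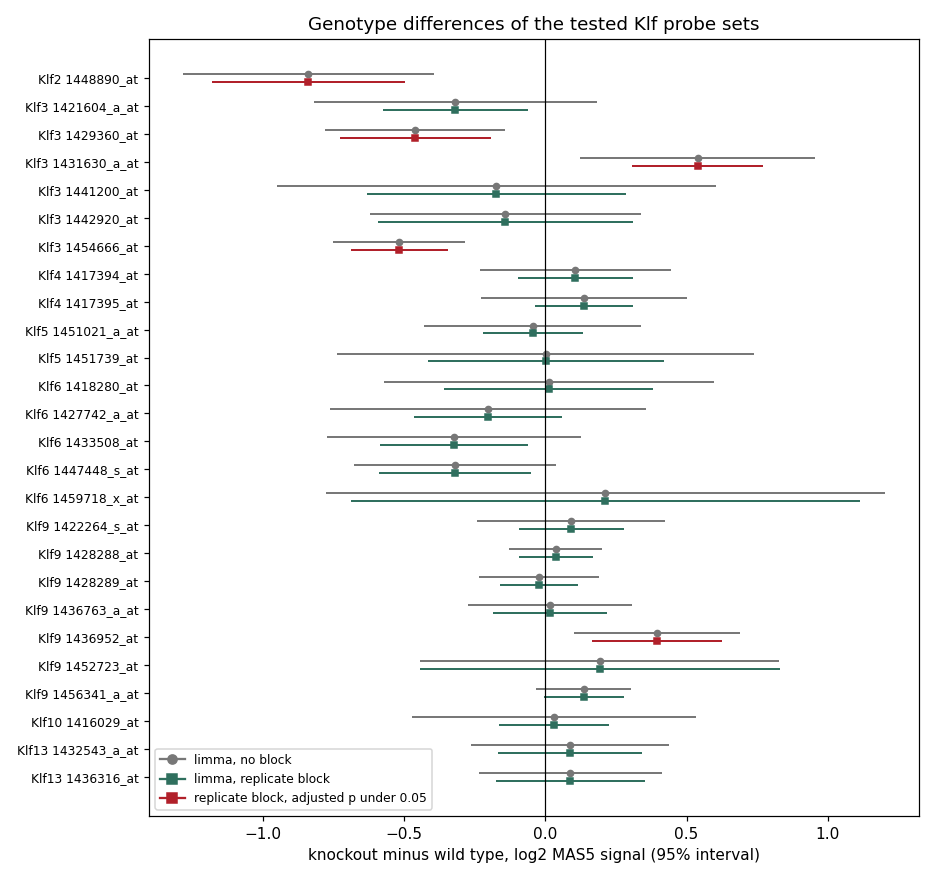
Knockout minus wild type difference (log2) of the 26 tested Klf probe sets with 95% intervals from limma, without a block in grey and with the replicate number as a block in green, or in red where the adjusted p was under 0.05. The 5 red probe sets are 1 of Klf2, 3 of Klf3 and 1 of Klf9.

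Several Klf genes differed more between array numbers than between genotypes. At 9 of the 26 tested probe sets both arrays numbered 1 lay above the other 4 arrays, where 19.8% of all probe sets did so, and at 1 both lay below, where 16.2% did. Klf10 was higher on array 1 by 0.50 in wild type and 0.67 in knockout cells, and Klf5 (1451021_a_at) by 0.53 and 0.29. Klf6 (1427742_a_at) was higher by 0.37 and 0.86. Klf2 did not follow this pattern, since array 1 was 0.62 above the other wild type arrays and -0.26 from the other knockout arrays. The mean of the feeder markers was lowest on the arrays numbered 1, as given above, though Fn1 and Twist1 were highest there in both genotypes. The part of the feeder markers in these shifts was not tested.

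The relatives of these genes showed few differences. Of 9 other Klf genes, 7 were tested and 0 passed limma's threshold in either fit, with a median difference of -0.19 against -0.00 over all 12915 genes. The brightest, Klf16 and Klf11, differed by -0.14 and 0.02, and the 7 differences ran from -0.52 (Klf14) to 0.54 (Klf7). Klf1, on chromosome 8 like Klf2, differed by -0.48 with a wide interval (-1.92 to 0.96). Of 9 Sp factor genes 5 were tested, and 0 passed without the block. Sp1, the general GC box factor, differed by 0.26 (limma adjusted p = 0.419, and 0.0451 with the block), Sp3 differed by 0.08, and the list median was 0.27.

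Among 16 tested genes for cofactors and turnover of Klf proteins, 1 fell and 0 rose. Hdac1, a histone deacetylase of the Sin3 complex, went from 13.28 to 12.58, a difference of -0.70 ± 0.10 (SE; limma adjusted p = 0.0304). With the replicate block 4 were lower, Hdac1, the Sin3 complex genes Sin3b and Sap30 and the acetyltransferase gene Kat2b, and the list median was -0.03. Of all tested probe sets 4.39% were lower with the block. Sin3b and Sap30 lie on chromosome 8, where 33.3% of the tested probe sets were lower with the block. Without each single array but knockout 1 the count of this list was 0, and without knockout 1 it was 2.

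The LIF pathway, which acts upstream of Klf4, gave 0 of 10 genes past the threshold in either fit, with a median of -0.13. Socs3, the feedback inhibitor induced by Stat3, differed by -0.00 (-0.61 to 0.61) and the kinase gene Pim3 by 0.19. Of 16 genes of the naive pluripotency network, several of them reported targets of Klf2, Klf4 and Klf5, 1 fell and 0 rose, with a median of -0.10. This was Zfp42 (Rex1), a naive marker on chromosome 8, which went from 13.27 to 11.28, 3.98-fold lower (limma adjusted p = 8.37e-05). With the block Gbx2 and Tcl1 were lower too, at -0.45 and -0.48, where 4.39% of all probe sets were lower.

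Of the 16 immediate early genes, 0 passed without the block and 1 was lower with it, with a median of -0.06. That one was Ier2, on chromosome 8, at -0.55 (limma adjusted p = 0.0824, and 0.00493 with the block), while Egr1 differed by -0.31 (-1.45 to 0.82). The brightest feeder fibroblast markers, the matrix gene Fn1 and the filament gene Vim, differed by 0.43 (limma adjusted p = 0.128, and 0.00327 with the block) and -0.07, with a list median of -0.10. Of 14 tested primitive endoderm markers 3 fell, Srgn at -2.57, Gata6 at -1.63 and Col4a1 at -1.02. Over all tested probe sets 0.648% passed in either direction. With the block 9 were lower, where 4.39% of all probe sets were, and the list median was -0.97. This list was written with earlier results of these data known, so its counts are no separate result. Col4a1 and, among those 9, Col4a2 lie on chromosome 8. Without wild type array 2 or 3 or knockout array 3 the unblocked count of this list was 1.

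The genes whose 6 values ran most like those of Klf2, by Pearson's r over the 6 arrays, were Smim19 (r = 0.99), Apobec2 (0.98), Krt81 (0.97), Tmem231 (0.97) and Hdac1 (0.97), and Smim19 and Tmem231 also lie on chromosome 8. For Klf4 they were Camsap2, Smim22, Scgb3a1, Sugt1 and Zmym2 (r from 0.98 to 0.99), and for Klf5 Gcnt2, Igsf21, Ddx50, Rnf144b and A2m (r from 0.99 to 1.00). None of the 10 genes most like Klf4 or Klf5 differed between genotypes past limma's threshold. They were picked for likeness to genes that did not pass it, so this is no separate result. With 6 arrays that part by genotype and by number, likeness is easily reached: r was above 0.9 with Klf2 at 107 of 12914 genes, with Klf4 at 140 and with Klf5 at 366. These correlations describe the arrays and carry no test.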

How the data were processed

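Per the labels, biotin-labelled cRNA was hybridised to Affymetrix mouse genome arrays. The deposited values are log2 MAS5 signals: MAS5 is named in the submitters' processing notes, with no version given in the sources used here. The log2 scale was settled from the values, since the linear trimmed mean (2% cut at both ends) was 497.0 to 497.3 on every array. Detection calls were not used here. Symbols came from the platform annotation, updated through gene identifiers (RefSeq, GRCm38.p6), and 34945 probe sets named 1 gene.

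Probe sets below the 40th percentile of mean log2 value (5.27) were left out, and knockout minus wild type was tested over the other 27022 with limma 3.58.1 (R 4.3.3; lmFit, eBayes with trend, two-sided, Benjamini-Hochberg, threshold 0.05). Ratios to Klf2 were fitted without a trend. The fit was tested on simulated data with independent noise. That simulation held no effect of array number or chromosome, so it does not cover such effects. Genes outside the family are represented by their brightest tested probe set. Named were all members, Setd2, and up to 4 genes past the threshold per list or else the 2 brightest. The 5 genes most like Klf2, Klf4 and Klf5 were named too. Genes called only with the block, the neighbours of Klf2 and any further list genes were named after their values were seen. Members, lists and tests were chosen with earlier results of these data known.

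Deviations from the genotype mean correlated between same-numbered arrays at r = 0.50, 0.23 and 0.24 for numbers 1, 2 and 3 (unlike numbers -0.37 to 0.23), across probe sets. All 3 passed the bound of 0.1 set for pairing, so blocked values stand beside results whose call they change. Wild type 2 with knockout 3 (0.23) and wild type 3 with knockout 2 (0.17) passed it too. The correlations thus set number 1 apart but do not show that 2 pairs with 2 or 3 with 3. The labels do not say what a number shares. For arrays, depth does not apply and their number limits the precision. Alternatives covered the filter, trend, normalization, centring, block, chromosome medians and single arrays.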

Additional observations from a re-analysis of the deposited data

How the results depend on the processing

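Without a block, 0 Klf probe sets passed under the alternatives that kept all 6 arrays (no filter, no trend, quantile normalization, median centring, chromosome medians subtracted) and without any single array. The count was 5 with the replicate block, against 7.88% of all probe sets, and 4 without the arrays numbered 1, against 7.52%. Alternatives chosen after seeing the data gave 4 with the replicate block and chromosome medians subtracted (Klf2 no longer among them), against 5.86%. With the replicate block and without pair 1, 2 and 3 they gave 7, 3 and 2, against 12.4%, 3.93% and 2.86% of all probe sets. Klf2 and the Klf3 probe set 1454666_at passed in each of these last 3, where Klf2 differed by -0.55, -1.07 and -0.90. The 7 without pair 1 also held Klf4 1417394_at (higher) and Klf6 1427742_a_at (lower), called in no other setting. Klf2 differed by -0.84 with the replicate block, by -0.55 without the arrays numbered 1, and by -1.03 to -0.63 without single arrays (limma adjusted p from 0.120 to 0.435).

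Over all probe sets the 175 calls became 57 without the trend, 2129 with the replicate block, 2033 without the arrays numbered 1, and 31 to 431 without single arrays. Of the 7 paralogs, 3 were called against Klf2, and 0 without the filter, without the arrays numbered 1, with chromosome medians subtracted, and with the replicate block and chromosome medians subtracted. Without single arrays the count ran from 0 to 5, and the exact test cannot go below 0.10. List genes called numbered 5, 19 with the replicate block and 2 to 7 without single arrays. No called difference reversed, while 47 of 442 member differences changed sign without being called in either setting. The cause of these shifts was not tested. Dim probe sets, and 3 arrays per genotype, limit what can be seen.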

Other observations

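Among the 16 immediate early genes, 3 are described here, chosen after their values were seen. Fos read 13.05, 8.70 and 9.73 on wild type arrays 1, 2 and 3, and 10.66, 11.25 and 8.53 on knockout arrays 1, 2 and 3. Egr1, an early growth response factor, read 13.30, 11.26 and 12.06 against 11.94, 12.52 and 11.21. Both were highest on wild type array 1 and overlapped between the genotypes. Dusp1, a phosphatase gene of Map kinase feedback, read 12.45, 10.94 and 11.48 against 11.70, 11.51 and 11.43. Not every member of the list was highest on wild type array 1. Jun, Btg2, Ccn1 and Ccn2 were highest on knockout array 1, and Ier3 and Myc on wild type array 3. The rest of the list was highest on wild type array 1.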
